A study of Bos taurus with 33 samples.

Results

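Transcripts of the BCL2 family and of the initiator caspases were followed in oocytes and in the cumulus cells (CC) that enclose them. The set held 9 gene symbols, picked by name: BCL2, BCL2L1, MCL1 and BCL2L10 (survival members), BCL2L11 (a BH3-only protein, also called BIM), BAX and BAK1 (pore-forming effectors), and CASP8 and CASP9 (initiator caspases). Of these 9, 8 were found by symbol and Ensembl identifier among the 14980 genes listed for both cell types (16279 for oocytes, 16244 for CC), and BCL2L10 was not listed under its symbol for either and is not analysed here. MCL1 carried its symbol only in the oocyte table and was joined to the CC table by its identifier.

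The samples were pools of 4 oocytes, or of the CC of 4 complexes, aspirated from the largest follicle of suckled, postpartum Hereford-Angus crossbred beef cows. All cows received GnRH (gonadotropin releasing hormone) on day -9 and prostaglandin F2α on day -2. Small follicles (at most 11.7 mm in diameter) and large follicles (at least 12.7 mm) came from cows without estrus that were given a second GnRH injection on day 0, whereas spontaneous follicles (11.7 to 14.0 mm) came from cows that expressed estrus, received no second injection and relied on their own gonadotropin surge. There were 6 small, 6 large and 4 spontaneous oocyte pools, and 6 small, 6 large and 5 spontaneous CC pools. The labels gave the interval from injection or estrus to collection both as about 20 h and as about 23 h. Spontaneous follicles differed from the others in estrus, in the source of the surge and, in part, in diameter, and these cannot be told apart. Each pool blends 4 complexes, so variation between single complexes was not measured.

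Apoptosis through the mitochondrion is set by the balance between survival members such as BCL2, BCL2L1 (BCL-XL) and MCL1, which hold BAX and BAK1 in check, and BH3-only proteins such as BCL2L11, which occupy the survival members and release the effectors. Once BAX or BAK1 opens the outer mitochondrial membrane, cytochrome c assembles with APAF1 into the apoptosome, where CASP9 is activated, while CASP8 is activated at death receptors on the cell surface. In the ovary this machinery is known for its part in the loss of oocytes and in the atresia of follicles, which begins in the granulosa lineage to which CC belong.

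Values are CPM, the reads of a gene per 1000000 reads on all genes of the pool. Between 7664375 and 17934916 reads fell on genes in an oocyte pool and between 1911600 and 5772431 in a CC pool, so that the 3 reads which a count of 0 allows were worth 0.167 to 0.391 CPM in oocytes and 0.52 to 1.57 CPM in CC. Small oocyte pool 3 had the fewest reads of the oocyte pools, and the study ran its comparisons of small oocyte pools with and without it, as was done here. Spontaneous CC pools held 4535826 to 5510272 reads, against 1911600 to 5772431 in small and 2809623 to 5123650 in large CC pools. The summed level of 10 oocyte markers was 10795 to 15451 CPM in oocyte pools and at most 6.76 CPM in CC pools, where 5 of the 10 were listed. The summed level of 10 cumulus and granulosa markers was 12309 to 34019 CPM in CC pools and 519 to 4037 CPM in oocyte pools, none of them at 0 in all oocyte pools, and the part of this in the oocyte levels below was not tested. Of these 10 markers VCAN had the highest median in both cell types (15808 CPM in CC, 863 CPM in oocytes). HAS2 had a higher median in oocytes (186 against 50.5 CPM), and the other medians were higher in CC.

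Cumulus cells carried more BCL2, MCL1, CASP8, BAK1 and CASP9 than oocytes relative to all reads, and oocytes carried more BCL2L1. BCL2 and MCL1 were the 2 of 8 genes for which every CC pool stood above every oocyte pool, where 10.6% of all 14980 shared genes did so, and 0 of 8 had every oocyte pool above every CC pool, against 17.5% of all genes. Among the 11431 genes that passed the filter described below in at least 1 cell type, these shares were 13.4 and 22.9%. The difference in mean log2(CPM + 1), CC minus oocyte, had a median of 1.33 over the 8 genes and of 0.044 over the 14980. The values of each cell type were scaled to its own reads, so the 2 cell types were set side by side without a test, and in such bulk samples a different number of expressing cells and a different amount of RNA per cell cannot be told apart.

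**Figure D1:**
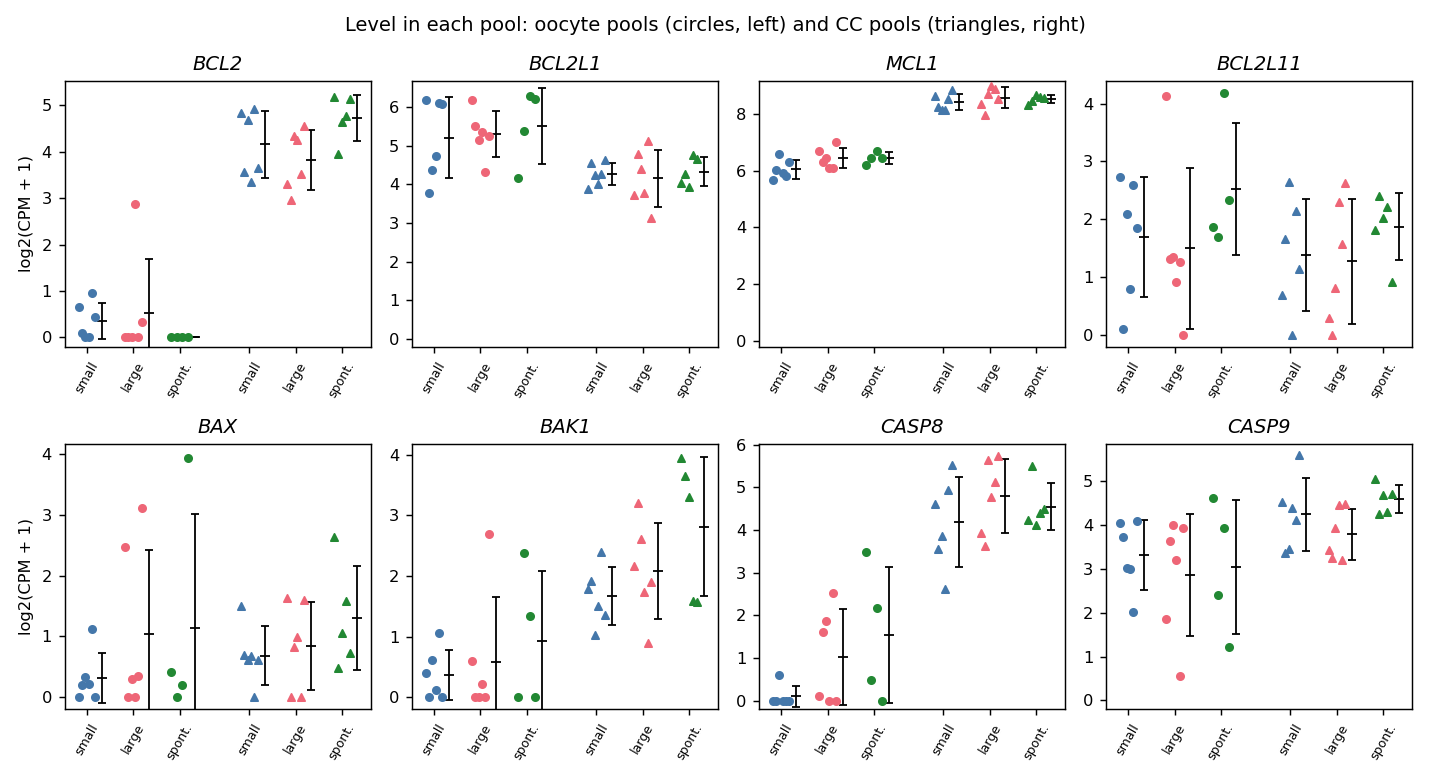
Level of each of the 8 genes in every pool, on a log2(CPM + 1) axis, with oocyte pools as circles on the left and CC pools as triangles on the right, by follicle classification (small, large, spont. for spontaneous). Black bars are the mean and SD of the plotted values, and BCL2 and MCL1 are the genes whose CC pools all lie above the oocyte pools, with BCL2 at 6.76 CPM or more in CC and at most 6.31 CPM in oocytes.

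Among the survival members, BCL2 (ENSBTAG00000019302), the founding member of the family, was close to absent from oocytes. It was at 0 in 10 of 16 oocyte pools, including the 4 spontaneous pools, where a count of 0 allows up to 0.167 to 0.228 CPM. In small oocyte pools BCL2 ranged from 0 to 0.935 CPM with a median of 0.209, and in large oocyte pools from 0 to 6.31 CPM with a median of 0. Large oocyte pool 4 held 78 of the 105 BCL2 reads of all oocyte pools. In CC, BCL2 was read in every pool: 9.11 to 29.3 CPM in small pools (median 18.1), 6.76 to 22.6 CPM in large pools (median 14.2), and 35.1, 14.4, 24.0, 26.1 and 34.4 CPM in spontaneous pools 1 to 5. The mean level of 19.6 ± 9.21 CPM in CC (SD, n = 17) was 36.9-fold that of 0.530 ± 1.56 CPM in oocytes (SD, n = 16), and 135-fold without large oocyte pool 4, where the oocyte mean was 0.145 CPM. Within CC the order of the means was spontaneous, small, large, and the ranges of the 3 classifications overlapped.

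MCL1 (ENSBTAG00000015154), a short-lived survival protein that binds BAK1 and BCL2L11, varied least among pools on the log2 scale, with an SD of 0.36 in oocytes and of 0.29 in CC. Oocyte pools held 49.8 to 94.3 CPM from small follicles (median 61.3), 67.3 to 128 CPM from large follicles (median 81.4), and 72.4, 86.2, 101 and 87.1 CPM from spontaneous follicles. CC pools held 278 to 454 CPM from small follicles (median 336), 248 to 508 CPM from large follicles (median 391), and 313, 347, 408, 385 and 379 CPM from spontaneous follicles. The lowest CC pool thus stood above the highest oocyte pool by a wide gap. The CC mean of 368 ± 71.8 CPM was 4.62-fold the oocyte mean of 79.6 ± 20.3 CPM (SD, n = 17 and 16). The transcripts whose pattern over pools was most like that of MCL1 were NDUFC2 (Pearson r = 0.82) and GPAA1 (r = 0.81) among 9570 compared over 16 oocyte pools, and RAB2A (r = 0.92) and PTGR2 (r = 0.92) among 9293 compared over 17 CC pools. These correlations are descriptions over pools that share their scaling to total reads.

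BCL2L1 (ENSBTAG00000006526), the gene of BCL-XL, ran the other way. Its level was 12.7 to 71.3 CPM in small oocyte pools (median 45.8), 19.1 to 71.9 CPM in large oocyte pools (median 38.4), and 16.9, 40.9, 77.4 and 73.0 CPM in spontaneous oocyte pools. In CC it was 13.8 to 23.6 CPM in small pools (median 18.1), 7.68 to 33.5 CPM in large pools (median 16.3), and 15.3, 18.1, 14.2, 26.0 and 24.3 CPM in spontaneous pools. Of the 16 oocyte pools 11 lay above every CC pool, and the others fell within the CC range. The oocyte mean of 44.9 ± 23.0 CPM (SD, n = 16) was 2.37-fold the CC mean of 18.9 ± 6.49 CPM (SD, n = 17).

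The reads on the 3 survival genes were therefore divided differently in the 2 cell types. In oocytes 65.2 ± 13.4% of these reads lay on MCL1, 34.3 ± 13.1% on BCL2L1 and 0.454 ± 1.38% on BCL2 (SD, n = 16). In CC 90.4 ± 2.55% lay on MCL1, 4.79 ± 1.81% on BCL2L1 and 4.85 ± 2.30% on BCL2 (SD, n = 17). The shares were not corrected for transcript length, so they can be compared between pools but not between genes. The BCL2 share in CC was 4.93 ± 2.33% in small (n = 6), 3.37 ± 1.36% in large (n = 6) and 6.53 ± 2.27% in spontaneous pools (n = 5).

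**Figure D2:**
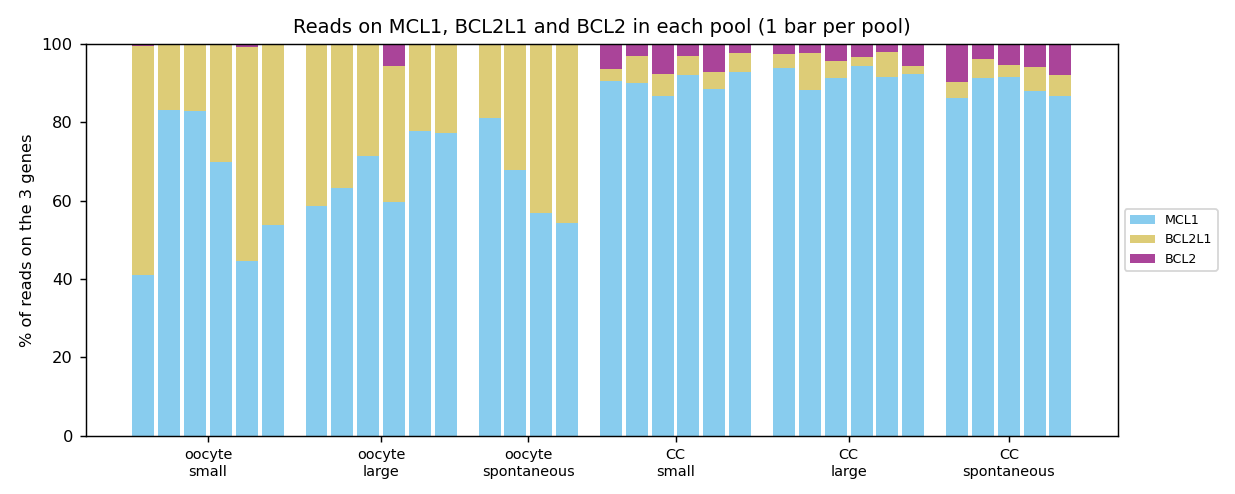
Share of the reads on MCL1, BCL2L1 and BCL2 that fell on each gene (percent, not corrected for length), with 1 bar per pool in replicate order. MCL1 takes 90.4 ± 2.55% in CC pools and 65.2 ± 13.4% in oocyte pools (mean and SD), and the BCL2 segment is visible in every CC pool but in few oocyte pools.

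BCL2L11 (ENSBTAG00000024105), the BH3-only member of the set, was low in both cell types. In oocytes it lay between 0.0739 and 5.68 CPM in small pools (median 2.92) and between 0 and 16.6 CPM in large pools (median 1.44), and at 2.66, 2.23, 17.1 and 4.01 CPM in spontaneous pools. Large pool 1 and spontaneous pool 3 stood apart from the others of their classification. In CC it did not exceed 5.23 CPM and was at 0 in 2 of 17 pools. The means were 4.08 ± 5.25 CPM in oocytes and 2.30 ± 1.78 CPM in CC, and the ranges overlapped.

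The effectors gave few reads. BAX (ENSBTAG00000013340) gave 442 reads in all 16 oocyte pools together, of which spontaneous pool 4 held 257, and 87 reads in the 17 CC pools. Its level in oocytes was at most 1.17 CPM in small pools, reached 7.61 CPM in large pools, and was 0.332, 0, 0.152 and 14.3 CPM in spontaneous pools. In CC it lay between 0 and 1.84 CPM in small pools and between 0 and 2.09 CPM in large pools, and at 5.22, 0.390, 1.09, 1.996 and 0.661 CPM in spontaneous pools. BAX was at 0 in 5 oocyte pools and 3 CC pools, and the ranges overlapped, with means of 1.83 ± 3.93 and 1.14 ± 1.27 CPM. Without spontaneous oocyte pool 4 the oocyte mean was 0.991 CPM, below that of CC.

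BAK1 (ENSBTAG00000000428), the other effector, was read in every CC pool and was at 0 in 7 of 16 oocyte pools. Oocyte levels were at most 1.09 CPM in small pools and 5.49 CPM in large pools, and 0, 4.18, 1.52 and 0 CPM in spontaneous pools. In CC it lay between 1.05 and 4.28 CPM in small pools (median 2.14), between 0.852 and 8.19 CPM in large pools (median 3.09), and at 14.4, 11.5, 8.89, 1.996 and 1.98 CPM in spontaneous pools. Spontaneous CC pools 1 to 3 were the highest of the 17, whereas pools 4 and 5 lay within the range of small follicles. The CC mean of 4.43 ± 3.96 CPM was 5.11-fold the oocyte mean of 0.868 ± 1.63 CPM (7.92-fold without large oocyte pool 6), with 4 CC pools above every oocyte pool.

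CASP8 (ENSBTAG00000015718), the initiator of the death receptor route, was the gene nearest to BCL2 in its contrast between the cell types. It was at 0 in 8 of 16 oocyte pools. In small oocyte pools 4 reads were found in all, in pool 3 (0.522 CPM). Large oocyte pools held 0 to 4.802 CPM (median 1.06), and spontaneous oocyte pools 10.2, 0.405, 3.49 and 0 CPM. CC held 5.16 to 45.0 CPM in small pools (median 18.6), 11.4 to 52.2 CPM in large pools (median 30.2), and 17.8, 44.3, 16.3, 20.1 and 21.6 CPM in spontaneous pools. The CC mean of 25.6 ± 14.5 CPM was 17.0-fold the oocyte mean of 1.51 ± 2.75 CPM (27.4-fold without spontaneous oocyte pool 1), and 16 of 17 CC pools lay above every oocyte pool. The overlap rested on spontaneous oocyte pool 1 and small CC pool 4: without either of them 3 genes, not 2, had separate ranges.

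CASP9 (ENSBTAG00000002472), the caspase of the apoptosome, was read in all pools of both cell types. Oocyte pools held 3.04 to 16.2 CPM from small follicles (median 9.72), 0.462 to 15.1 CPM from large follicles (median 9.86), and 23.6, 4.32, 14.3 and 1.34 CPM from spontaneous follicles. CC pools held 9.23 to 47.6 CPM from small follicles (median 18.3), 8.24 to 21.2 CPM from large follicles (median 11.995), and 32.0, 17.9, 24.7, 18.7 and 25.1 CPM from spontaneous follicles. The spread among oocyte pools was wide in each classification. The CC mean of 19.2 ± 9.99 CPM was 1.96-fold the oocyte mean of 9.80 ± 6.56 CPM, and the ranges overlapped.

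The study compared small with large, small with spontaneous and large with spontaneous follicles within each cell type, to ask whether the maturity of the follicle and the source of the surge are reflected in the transcripts of the complex. No gene of the set passed a nominal p of 0.01 or less between classifications in limma on log2(CPM + 1). The study's own rule asked for that p in both edgeR and DESeq2, and BAK1 between small and spontaneous CC pools met it on the recovered reads with edgeR's likelihood ratio test, though not with its quasi-likelihood test. A transcript was tested if 4 or more oocyte pools, or for CC 5 or more pools, reached 5 CPM. In oocytes 4 of the 8 genes passed (BCL2L1, MCL1, CASP9 and, with the least number of pools, BCL2L11), and in CC 6 of 8 (BCL2, BCL2L1, MCL1, CASP8, CASP9 and, with the least number of pools, BAK1). The CC pools in which BAK1 reached 5 CPM were 0 small, 2 large and 3 spontaneous. BAK1 was thus tested only because of its level in large and spontaneous pools, and its comparisons with small pools are not independent of the filter. Of 10076 oocyte transcripts tested, 0.655% passed the threshold between small and large, 0.774% between small and spontaneous and 0.943% between large and spontaneous, and of 9712 CC transcripts 0.813, 2.38 and 1.66% passed, respectively. In the 30 tests of the set 0 passed and 3 had an unadjusted p under 0.05, all of them in CC and higher in spontaneous pools. Over all transcripts, an unadjusted p under 0.05 was found for 4.0, 8.55 and 7.07% in CC and for 4.11, 4.51 and 4.87% in oocytes, in the same order of comparisons. The lowest adjusted p of the set (Benjamini-Hochberg over all tested transcripts) was 0.544. On the recovered reads, edgeR's quasi-likelihood test gave 0 calls in the set in all 6 comparisons, and edgeR's likelihood ratio test and DESeq2 gave 1 each, for BAK1 between small and spontaneous CC pools. In 48 exact permutation tests of mean CPM, over all 8 genes, 0 had a p of 0.01 or less and 3 a p under 0.05, and for 0 genes did the pools of 2 classifications fail to overlap, against 0.258, 0.903 and 0.913% of tested transcripts in oocytes and 0.247, 1.16 and 0.865% in CC.

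**Figure D3:**
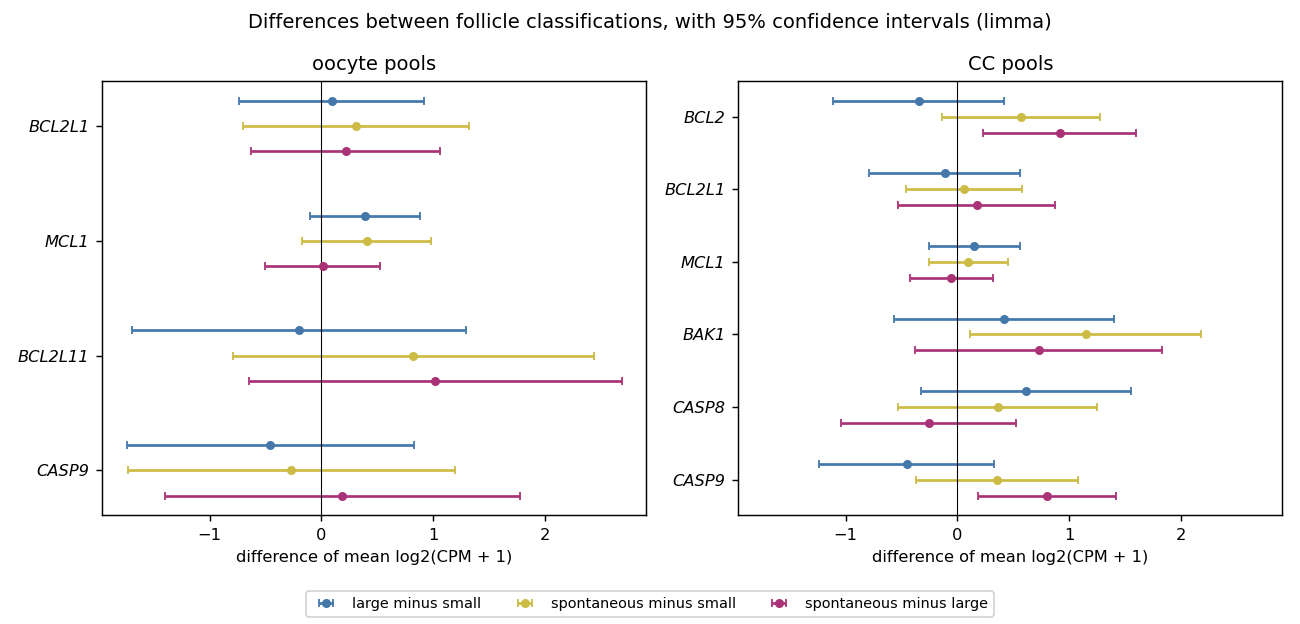
Differences between follicle classifications for the genes that passed the filter, as the later-named minus the earlier-named classification on the log2(CPM + 1) scale, with 95% confidence intervals from limma (oocyte pools left, CC pools right). The intervals of BCL2 and CASP9 (spontaneous minus large) and of BAK1 (spontaneous minus small) in CC lie above 0, and 0 of the 30 differences passed the threshold of 0.01.

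The smallest limma p of the set was that of BCL2 in CC between large and spontaneous follicles. Its mean was 14.3 ± 6.42 CPM in large (n = 6) and 26.8 ± 8.49 CPM in spontaneous pools (n = 5), a difference of 0.92 on the log2 scale (SE 0.324, 95% confidence interval 0.232 to 1.60). The p was 0.0116 in limma (adjusted p = 0.583) and 0.026 in the exact permutation test, where 0.00216 is the smallest p possible, and 4 of the 5 spontaneous pools lay above every large pool. CASP9 differed in the same direction in this comparison, from 13.8 ± 6.01 CPM (n = 6) to 23.7 ± 5.69 CPM (n = 5). The difference was 0.80 on the log2 scale (SE 0.293, interval 0.187 to 1.42), with a limma p of 0.0137 (adjusted p = 0.592) and an exact permutation p of 0.0238, and 3 of the 5 spontaneous pools lay above every large pool. Beside these differences, the median over all CC transcripts was 0.11 higher in spontaneous than in large pools on the same scale, and with median-of-ratios scaling, where that median was 0.012, BCL2 differed by 0.82 and CASP9 by 0.71. BCL2 passed the threshold of 0.01 without large pool 3, large pool 6 or spontaneous pool 2, and CASP9 without large pool 4 or 6. Without spontaneous pool 1 the limma p rose to 0.0366 for BCL2 and 0.0437 for CASP9. Over all pools left out the differences were 0.74 to 1.11 and 0.69 to 0.94. On the recovered reads, edgeR's quasi-likelihood test, its likelihood ratio test and DESeq2 gave BCL2 a p of 0.0278, 0.0215 and 0.0202. They gave CASP9 a p of 0.0415, 0.0383 and 0.0352.

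BAK1 in CC was 2.32 ± 1.14 CPM in small (n = 6) and 7.76 ± 5.62 CPM in spontaneous pools (n = 5), a difference of 1.15 on the log2 scale (SE 0.493, interval 0.109 to 2.18). The p was 0.0322 in limma (adjusted p = 0.544) and 0.0455 in the exact permutation test. With the recovered reads DESeq2 gave 1.58 and the edgeR likelihood ratio test 1.57, both past the threshold of 0.01, and 1.57 in edgeR's quasi-likelihood test, with a p of 0.0139. With values rescaled without mitochondrially encoded genes the difference was 1.07, with a limma p of 0.0574. BAK1 passed the filter through its large and spontaneous pools, so its limma, edgeR and DESeq2 p-values are not independent of the filter. Leaving out spontaneous pool 4 or 5, the 2 low ones, took BAK1 past the threshold (1.45 and 1.46). Removing a low pool can only raise the spontaneous mean, so these 2 fits add no support. Without spontaneous pool 1, 2 or 3, the high ones, BAK1 fell below the filter and was not tested. Over the 8 fits that could be run the difference was 1.02 to 1.46. The lowest was that without small pool 3, with a limma p of 0.0599. Over all CC transcripts the median difference between small and spontaneous pools was 0.16. The summed level of 10 white blood cell markers was 42.6 to 233 CPM in small, 39.0 to 250 CPM in large and 63.9 to 326 CPM in spontaneous CC pools, and its part in the levels of BCL2, CASP9 and BAK1 was not tested.

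The other genes of the set gave smaller or less certain differences in CC. MCL1 differed by 0.15 (interval -0.257 to 0.558) between small and large, by 0.098 (-0.258 to 0.453, but -0.058 with median-of-ratios scaling) between small and spontaneous, and by -0.053 (-0.428 to 0.322) between large and spontaneous CC pools on the log2 scale. None of the 3 intervals reached beyond 0.558 from 0 in either direction. For BCL2L1 the largest absolute difference was 0.17 (interval -0.529 to 0.872, but -0.030 in edgeR), between large and spontaneous pools. CASP8 was 31.1 ± 17.0 CPM in large against 21.3 ± 14.6 CPM in small CC pools, a difference of 0.62 with an interval of -0.322 to 1.56. BCL2L11 and BAX were below the filter in CC, and their exact permutation p-values between classifications were 0.169 or more.

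In oocytes the intervals of MCL1 were again the narrowest of the set. Its mean was 66.4 ± 16.5 CPM in small, 87.9 ± 23.4 CPM in large and 86.8 ± 11.9 CPM in spontaneous pools. Large minus small was 0.39 (interval -0.097 to 0.884, limma p = 0.112, exact permutation p = 0.0974), and spontaneous minus small was 0.40 (interval -0.174 to 0.983, limma p = 0.163, exact permutation p = 0.0619). Without small pool 3, the highest small pool for MCL1, the limma p was 0.0594 against large and 0.105 against spontaneous pools. Neither difference passed the threshold of 0.01 in limma with or without that pool, and both intervals above included 0. Large and spontaneous oocyte pools differed by 0.011 (interval -0.503 to 0.525). The intervals of BCL2L1, CASP9 and BCL2L11 in oocytes were wider, as in BCL2L11 between large and spontaneous pools with 1.02 (interval -0.646 to 2.69).

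The 4 genes below the filter in oocytes were compared by the exact permutation test alone. CASP8 had means of 0.0870 ± 0.213 CPM in small, 1.60 ± 1.95 CPM in large and 3.51 ± 4.70 CPM in spontaneous oocyte pools, and the exact p was 0.106 between small and large and 0.0619 between small and spontaneous. The reads behind these means came from 1 of 6 small, 4 of 6 large and 3 of 4 spontaneous pools. For BAX, BAK1 and BCL2 in oocytes the exact p-values were 0.133 or more. With 6 against 4 pools the smallest exact p is 0.00476.

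The neighbours of these genes in the pathway were taken from 7 lists of 58 symbols, of which 48 were found. They gave 48 identifiers listed for both cell types, with CYCS (cytochrome c) under 2 identifiers and CASP14 listed for oocytes alone. All CC pools lay above all oocyte pools for 9 of the 48 (against 10.6% of all genes) and all oocyte pools above all CC pools for 8 (against 17.5%), and the median of CC minus oocyte was 0.86 on the log2 scale. In the list of mitochondrial release and the apoptosome, APAF1, the scaffold that activates CASP9, had 525 ± 91.7 CPM in oocytes and 71.2 ± 18.4 CPM in CC, 7.38-fold higher in oocytes, whereas VDAC2, a channel of the outer mitochondrial membrane that holds BAK1, had 141 ± 133 CPM in oocytes and 963 ± 196 CPM in CC. Pools of the 2 cell types did not overlap for either gene.

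Among the other lists, the largest differences in each direction were as follows. TNFRSF1A, a receptor of tumour necrosis factor upstream of CASP8, was at 45.2 ± 12.1 CPM in CC and 1.41 ± 1.60 CPM in oocytes, 32.1-fold apart, while RIPK1, a kinase of the same receptor complex, was at 92.2 ± 42.6 CPM in oocytes and 22.7 ± 10.9 CPM in CC. CASP6, an executioner caspase, was 8.84-fold higher in oocytes (211 ± 49.6 against 23.9 ± 5.57 CPM), and CASP4, an inflammatory caspase, was at 5.40 ± 3.39 CPM in CC and 0.258 ± 0.607 CPM in oocytes. Of the wider BCL2 family, BCL2L14 was read at 6.79 to 56.0 CPM in oocytes and at no more than 0.607 CPM in CC, BCL2L13 was at 10.9 ± 7.37 CPM in oocytes and 30.1 ± 6.85 CPM in CC, and BNIP3L, a mitophagy receptor, was at 168 ± 31.7 and 736 ± 166 CPM. BNIP3, its relative, had the smallest difference of its list at 0.39 on the log2 scale, since no transcript of that list was higher in oocytes.

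MDM4, a relative of the ubiquitin ligase MDM2, was 4.20-fold higher in oocytes (189 ± 39.1 against 45.0 ± 12.3 CPM). Among the inhibitor of apoptosis proteins, BIRC5 (survivin, which also acts in cell division) was 3.40-fold higher in oocytes (169 ± 33.1 against 49.6 ± 22.9 CPM), and NAIP was at 5.16 ± 4.21 CPM in CC and 0.101 ± 0.225 CPM in oocytes. For RIPK1, CASP4, BCL2L13, BNIP3 and NAIP the pools of the 2 cell types overlapped.

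**Figure D4:**
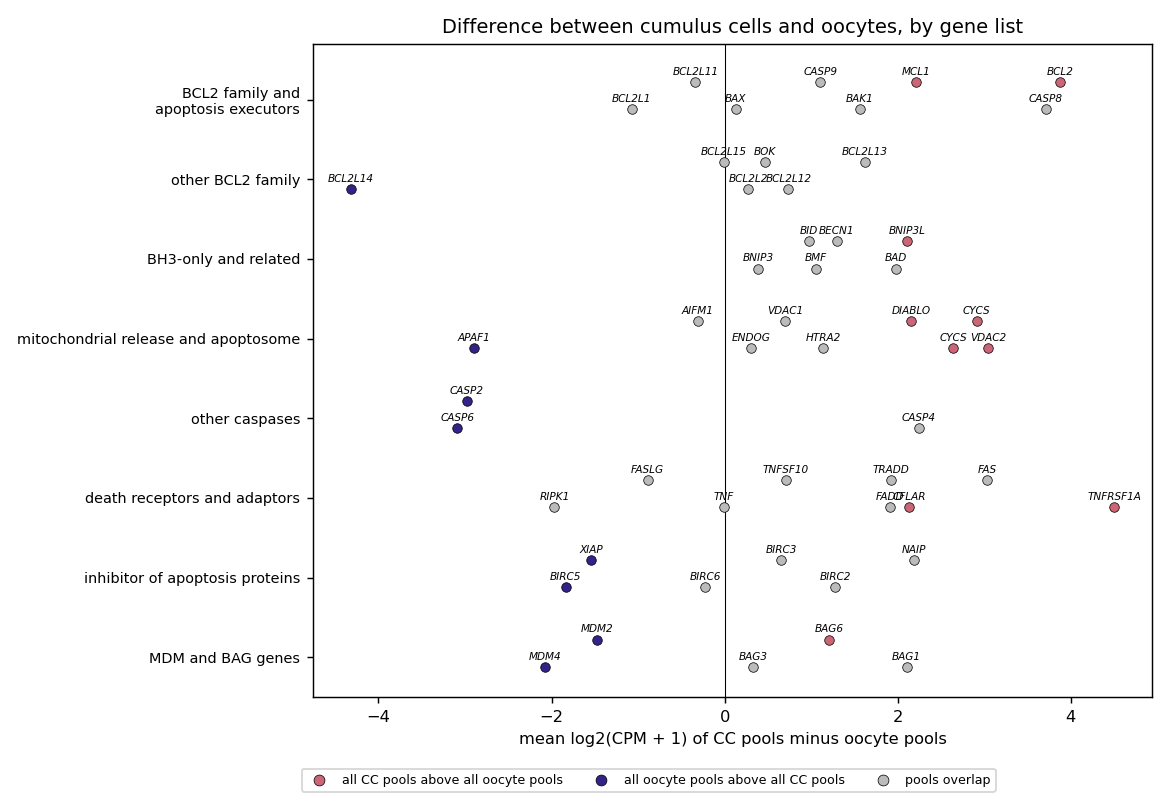
Mean log2(CPM + 1) of CC pools minus that of oocyte pools for the 8 genes (top row) and for genes of the 7 pathway lists, where CYCS has 2 identifiers. Points right of 0 are higher in CC, red and blue points have separate pool ranges, grey points overlap, and BCL2 (3.88), CASP8 (3.71) and MCL1 (2.21) lie to the right with TNFRSF1A (4.50), while BCL2L1 (-1.07) lies to the left with APAF1 (-2.89).

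Between follicle classifications, 34 pathway transcripts were tested in oocytes and 41 in CC, and the shares of all transcripts that passed were those given above (0.655, 0.774 and 0.943% in oocytes, 0.813, 2.38 and 1.66% in CC). None passed the threshold in oocytes between small and large or between large and spontaneous, with 1 and 2 at an unadjusted p under 0.05 in limma, and DESeq2 passed 1 between large and spontaneous where both edgeR tests passed 0. Between small and spontaneous oocyte pools 1 passed: MDM2, a ubiquitin ligase, rose from 127 ± 41.1 CPM (n = 6) to 212 ± 36.6 CPM (n = 4), by 0.79 on the log2 scale (SE 0.247, limma p = 0.00338, adjusted p = 0.896, exact permutation p = 0.0143). The difference was 0.69 to 0.91 in the 10 alternative settings with a p of 0.00193 to 0.0126, and the call, which also had to hold without small pool 3, was kept in 1 of them. It was lost without small pool 1, 2 or 6 or without spontaneous pool 1, 2 or 3 (0.66 to 0.89 over all pools left out).

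In CC, 2 of 41 passed between small and large and 2 of 41 between small and spontaneous follicles, and both were lowest in small follicles. Of all CC transcripts that passed, 67 were higher and 12 lower in large than in small pools, and 221 were higher and 10 lower in spontaneous than in small pools. TNFRSF1A rose from 32.997 ± 2.36 CPM in small to 53.8 ± 12.2 CPM in large pools (n = 6 each) and stood at 49.6 ± 6.08 CPM in spontaneous pools (n = 5). On the log2 scale it was 0.66 higher in large pools (SE 0.202, limma p = 0.00371, adjusted p = 0.999) and 0.57 higher in spontaneous pools (SE 0.177, limma p = 0.00489, adjusted p = 0.390) than in small pools, with an exact permutation p of 0.00216 in both comparisons, the smallest possible. The small pools overlapped with neither of the others. Of all tested CC transcripts, 0.247% had separate pools between small and large and 1.16% between small and spontaneous. BNIP3 rose from 163 ± 60.4 CPM in small to 301 ± 124 CPM in large pools (0.85, limma p = 0.00831, adjusted p = 0.999, exact permutation p = 0.0325) and was 293 ± 75.0 CPM in spontaneous pools (0.89, limma p = 0.00257, adjusted p = 0.345, exact permutation p = 0.0152). Both comparisons share the small pools. The summed level of cumulus and granulosa markers had medians of 19617, 27218 and 24570 CPM in small, large and spontaneous CC pools, and that of 5 theca markers 506, 718 and 707 CPM, and their part in these differences was not tested. The theca markers did not go together in CC. INSL3 and COL1A1 had medians of 360 and 235 CPM, STAR and ANPEP of 5.64 and 1.53 CPM, and CYP17A1 did not exceed 0.781 CPM. On the recovered reads, edgeR's likelihood ratio test and DESeq2 also passed transcripts in the other direction, named here after their values were seen. ENDOG, a mitochondrial nuclease, was lower in large (-1.04 in both) and in spontaneous pools (-0.93 and -0.94) than in small pools, and BCL2L12 was lower in spontaneous pools (-0.85 and -0.86). Between small and spontaneous pools these 2 were the pathway transcripts that passed in both tools, and TNFRSF1A and BNIP3 did not. Of 10 alternative settings, TNFRSF1A kept the call in 8 between small and large and in 4 between small and spontaneous, and BNIP3 in 4 and 5. Under median-of-ratios scaling, of these calls the one kept was that of TNFRSF1A between small and large pools. Leaving out a pool ended the call of TNFRSF1A against large pools once (large pool 6) and against spontaneous pools without spontaneous pool 2, 3 or 5, with differences of 0.56 to 0.75 and 0.53 to 0.64. BNIP3 lost the call against spontaneous pools without spontaneous pool 5 (0.72 to 1.03), and against large pools it was kept in 4 of 12 such fits (0.68 to 1.09). Between large and spontaneous CC pools 0 of 41 passed in limma, edgeR or DESeq2, with 3 at an unadjusted p under 0.05 in limma.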

How the data were processed

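RNA of pools of 4 oocytes or of the matching CC was amplified (Ovation V2) and sequenced. The authors used Hisat2 for alignment to UMD3.1 and FeatureCounts with the Ensembl annotation, and deposited CPM in 1 table per cell type. Whether counting used strand is not given in the sources used here. No genome, sequence or coordinate was used. All columns were matched to pools by name (0 unmatched). In 100% of values the CPM was a whole multiple of the value of 1 read (tolerance 0.02 reads), which gave back the reads behind the deposited CPM. Amplified reads are not independent molecules, so the limit for 0 covers counting error only. No 2 pools of a classification agreed within sampling noise (chi-square per degree of freedom at least 64.1 in oocytes and 14.4 in CC). Pools came from different complexes, and no label names the cows.

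Transcripts were tested with limma on log2(CPM + 1), pseudocount 1, with a mean-variance trend, without covariates, two-sided, on the 2 classifications compared, after the filter of the study's methods. In comparisons with small oocyte pools a call had to hold also without small replicate 3. The study tested counts with edgeR and DESeq2, which served here as alternatives on the recovered reads. Exact permutation tests, two-sided, compared mean CPM. The members and lists were chosen with earlier results of these data known. All members were named, and from the pathway lists every called transcript and the largest difference between cell types in each direction per list, except that the results of some transcripts are not reported here. As alternatives, the pseudocount was set to 0.1, the filter was dropped or replaced by a mean of 1 CPM, values were rescaled (median of ratios, or without mitochondrially encoded genes), a joint fit of the 3 classifications and a replicate block were tried, reads were tested with edgeR (quasi-likelihood, likelihood ratio) and DESeq2, and pools were left out singly. R 4.3.3, limma 3.58.1, edgeR 4.0.16, DESeq2 1.42.0, Python 3.11.15, pandas 2.3.3, scipy 1.17.1 and matplotlib 3.10.9 were used.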

Additional observations from a re-analysis of the deposited data

Results flagged for a closer look

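In 10 of 48 groups (a gene, a cell type and a classification) the highest pool lay further from the others than Dixon's critical value allows, where chance flags about 5%. The distribution of CPM is skewed at low levels, and all 10 were the highest pool, never the lowest. Pools at 0 also make the 5% an unfair yardstick. CASP8 was at 0 in 5 of 6 small oocyte pools, so any read in the other would have been flagged. BCL2 was at 0 in all 4 spontaneous oocyte pools, where no pool could be flagged. In oocytes these were BCL2 in large pool 4 (6.31 CPM), BCL2L11 in large pool 1 (16.6 CPM) and spontaneous pool 3 (17.1 CPM), BAX in small pool 5 (1.17 CPM) and spontaneous pool 4 (14.3 CPM), BAK1 in large pool 6 (5.49 CPM), and CASP8 in small pool 3 (0.522 CPM). In CC they were BAX in small pool 1 (1.84 CPM), CASP8 in spontaneous pool 2 (44.3 CPM) and CASP9 in small pool 6 (47.6 CPM).

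For BCL2, spontaneous minus small follicles on the log2 scale was 0.57 in CC and -0.36 in oocytes, 0.92 apart (exact permutation p = 0.0424), and spontaneous minus large follicles was 0.92 and -0.53, 1.45 apart (exact permutation p = 0.0274). These were 2 of 24 such tests with an unadjusted p under 0.05, and neither is read here as a difference between the cell types. Classifications were permuted within each cell type, so the p refers to no effect of classification in either cell type. It does not test whether the effects in the 2 cell types are equal. BCL2 was below the filter in oocytes, all 4 spontaneous oocyte pools had 0 reads, and without large oocyte pool 4 the oocyte effect from large follicles was -0.065 and the gap 0.98. The study took the CC of each pool from the same complexes as an oocyte pool, but the labels do not say which pools match, so the permutation treated them as independent.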

How the results depend on the processing

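Of the 30 differences between classifications in the set, 18 kept their direction under every alternative run and 12 turned under at least 1, all of them short of the threshold. BCL2L1 in oocytes from small to large was -0.12 in both edgeR tests, -0.13 in DESeq2 and -2.63 CPM as a difference of means. BCL2L11 there was 0.31, 0.31 and 0.29, and 0.747 CPM. CASP9 in oocytes from small to spontaneous was 0.042 in edgeR and DESeq2 and 0.722 CPM. MCL1 in oocytes from large to spontaneous was -0.038, -0.038 and -0.030, and -1.06 CPM. In CC from small to spontaneous, BCL2L1 was -0.090 with median-of-ratios scaling, -0.11 without mitochondrially encoded genes, and -0.087, -0.084 and -0.089 with the quasi-likelihood test, the likelihood ratio test and DESeq2, and MCL1 was -0.058, -0.077, -0.068, -0.067 and -0.074 in the same order. BCL2L1 in CC was 0.253 CPM as a difference of means from small to large, and from large to spontaneous -0.030, -0.030 and -0.031 in edgeR and DESeq2. The cause was not tested.

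The set had 1 call, BAK1, between small and spontaneous CC pools in edgeR's likelihood ratio test and 1 in DESeq2. The other differences in the number of calls were as follows. Over all transcripts, small against large oocyte pools gave 66 calls, 100 without a filter and 113 in DESeq2, small against spontaneous 78 and 121 in DESeq2, and large against spontaneous 95, 148 without a filter, 146 in the likelihood ratio test and 181 in DESeq2. In CC, small against large gave 79, 121 without a filter and 137 with all 3 classifications in one fit, and small against spontaneous 231, 126 with median-of-ratios scaling, 120 without mitochondrially encoded genes and 128 in the quasi-likelihood test. The split of these calls into higher and lower in spontaneous pools was 221 and 10, 79 and 47 with median-of-ratios scaling, and 67 and 53 without mitochondrially encoded genes. Pathway calls between small and spontaneous oocyte pools fell from 1 to 0 in 9 of 10 settings, those between large and spontaneous oocyte pools rose from 0 to 1 without a filter, with a mean of at least 1 CPM and in DESeq2, and those between large and spontaneous CC pools from 0 to 1 without a filter. Between small and large CC pools there was 1 call in place of 2 with median-of-ratios scaling and in the quasi-likelihood test (TNFRSF1A), and 1 without mitochondrially encoded genes, a different transcript that was lower in large pools. Between small and spontaneous CC pools there were 0 in the same 3 settings. CC minus oocyte for MCL1, 2.21, was 2.54 without mitochondrially encoded genes and 2.58 with median-of-ratios scaling over both tables.

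With 1 pool left out in turn, the set had 0 calls in each oocyte comparison and between small and large CC pools, 0 to 1 between small and spontaneous and 0 to 2 between large and spontaneous CC pools. Over all transcripts the calls ranged from 47 to 93, 49 to 130 and 75 to 145 in oocytes (small against large, small against spontaneous, large against spontaneous) and from 52 to 113, 141 to 313 and 88 to 232 in CC, and the pathway calls from 0 to 1 in each oocyte comparison and 0 to 2, 0 to 2 and 0 to 1 in CC. Of the differences that turned, those from small to large ranged in oocytes from -0.72 to 0.0065 (CASP9), -0.19 to 0.29 (BCL2L1) and -0.52 to 0.10 (BCL2L11), and in CC from -0.30 to 0.094 (BCL2L1). The range of BCL2L11 lacks the fits without small pool 1, small pool 5 or large pool 1 (16.6 CPM), where it fell below the filter. Those from small to spontaneous ranged from -0.79 to 0.34 (CASP9, oocytes) and -0.049 to 0.16 (BCL2L1, CC). Those from large to spontaneous ranged in oocytes from -0.34 to 0.80 (CASP9), -0.044 to 0.67 (BCL2L1) and -0.067 to 0.13 (MCL1), and in CC from -0.035 to 0.36 (BCL2L1) and -0.17 to 0.032 (MCL1).

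The same replicate numbers appear in each classification, but samples with the same number did not deviate together (correlations of -0.19 to 0.22 over 30 pairs, with the best match under its own number in 5), so the block has no basis in the design. With the replicate block 2 genes of the set, BCL2 (1.06) and CASP9 (0.94), passed between large and spontaneous CC pools. Spontaneous CC have no pool 6, so this fit takes nothing from large pool 6, and the same differences (1.06 and 0.94) passed without that pool and without a block. Pathway calls became 1, 1 and 0 (small against large and small against spontaneous CC, small against spontaneous oocytes), and the last comparison had 42 calls over all transcripts. BCL2L1 from large to spontaneous follicles became -0.035 in both oocytes and CC, and CASP9 in oocytes -0.13.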

Other observations

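A further caspase, the brakes on CASP8 and CASP9 and a death receptor were looked at after their values had been seen, as values with no test. CASP2, a caspase known for its part in oocyte death, was 8.16-fold higher in oocytes (71.9 ± 28.2 against 8.82 ± 4.97 CPM), and all oocyte pools lay above all CC pools. XIAP, which binds and inhibits CASP9, was 2.98-fold higher in oocytes (53.8 ± 14.0 against 18.1 ± 5.69 CPM), also without overlap. CFLAR, the inhibitor of CASP8 at death receptors, was 4.32-fold higher in CC (20.1 ± 5.97 against 4.64 ± 3.30 CPM), again without overlap. Of all shared genes, 17.5% had every oocyte pool above every CC pool and 10.6% the reverse. Of the 6 inhibitor of apoptosis proteins listed with XIAP, 3 had a higher mean log2 level in CC. Among them were BIRC2 (2.03-fold) and BIRC3 (1.61-fold), with overlapping pools. FAS, a death receptor that recruits CASP8, was at 13.2 ± 5.26 CPM in CC and 1.20 ± 2.52 CPM in oocytes, with overlapping pools (n = 16 oocyte and 17 CC pools throughout).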
